A study of Mus musculus with 12 samples.

Results

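The genes described here are 48 mouse genes that encode the working parts of the lysosome: cathepsins and other proteases, glycosidases and sulfatases, lipid hydrolases and lipid binding proteins, membrane proteins, subunits of the proton pump, the transcription factors Tfeb and Tfe3, and progranulin. They were named by symbol in a fixed list, and all 48 were found among the 55416 genes of the count table. RNA sequencing was done on SIM-A9 cells, a spontaneously immortalized mouse microglial line that the labels assign to the C57BL/6 strain. The study asked how MOK, a serine/threonine kinase of the MAP kinase superfamily, bears on the response to lipopolysaccharide (LPS), a glycolipid of the outer membrane of Gram-negative bacteria that macrophages sense through TLR4. There were 4 groups of 3 libraries: unmodified (WT) cells in medium alone, WT cells given LPS at 1 µg/mL for 5 h, MOK-KO cells of the line H14 (KO) in medium alone, and H14 cells given the same LPS for the same time. All groups came from the same parent line and were grown in the same serum-supplemented medium. Only 1 KO line was used, so the loss of MOK and any other difference of line H14 from the WT cells cannot be told apart. The labels call the libraries biological replicates without saying what separated the cultures, so p-values measure the spread between these libraries, which may be partly technical. In bulk RNA such as this, fewer cells of a type and less RNA per cell cannot be told apart.

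Lysosomes are acidic organelles in which hydrolases break down material delivered by endocytosis, phagocytosis and autophagy, and microglia, the phagocytes of the brain, depend on them to clear debris. The vacuolar proton pump (V-ATPase) acidifies the lumen, heavily glycosylated membrane proteins such as LAMP1 and LAMP2 line it, and transporters and channels carry products and ions across it. Many lysosomal genes carry a palindromic E-box element, called CLEAR, that the transcription factors TFEB and TFE3 bind when they enter the nucleus.

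The libraries held between 39726866 and 72922794 counts. The targeted gene, Mok, was still counted in KO cells. Its level in CPM (a count divided by the scaled total of its library and put on a common scale) was 3.33, 3.52 and 3.21 in the WT medium libraries and 2.24, 2.58 and 1.93 in the KO medium libraries (log2 fold change -0.58 ± 0.19 SE, edgeR adjusted p = 0.0501). Under LPS it was 2.83, 2.17 and 2.5 in WT and 1.70, 1.54 and 1.32 in KO (-0.72 ± 0.19, edgeR adjusted p = 0.0177). The KO libraries were below the WT libraries in each condition, and the labels do not say which part of the gene was altered, so the Mok count does not by itself check the label. The summed level of 12 microglial and macrophage markers was 935 to 1105 CPM in WT medium, 1211 to 1411 in WT LPS, 730 to 1008 in KO medium and 955 to 1211 in KO LPS, while the microglial markers P2ry12, Cx3cr1, Tmem119 and Aif1 had group means under 6 CPM throughout. Markers of B cells, neurons, fibroblasts and astrocytes summed to under 5 CPM in each library. Oligodendrocyte markers, mostly Mbp, summed to 25.1 to 25.9 CPM in KO medium against 9.83 to 15.1 in WT medium, and endothelial markers, nearly all Kdr and Flt1 with Pecam1 and Cldn5 under 1 CPM, to 129 to 152 against 275 to 289. The part of these markers in the results below was not tested. Processed pseudogenes took 13.4 to 15% of the counts in KO medium and 9.45%, 13.8% and 7.03% in the WT medium libraries 1, 2 and 3, but 7.08 to 7.80% in KO LPS against 6.72 to 7.53% in WT LPS.

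The lysosomal genes took a smaller share of all counts in KO cells. Their summed share was 1.23% ± 0.10 (SD, n = 3) in WT medium, 1.18% ± 0.04 in WT LPS, 0.90% ± 0.12 in KO medium and 0.81% ± 0.09 in KO LPS. In single libraries it was 1.33%, 1.14% and 1.21% in WT medium, 1.20%, 1.13% and 1.21% in WT LPS, 1.02%, 0.782% and 0.913% in KO medium, and 0.903%, 0.716% and 0.821% in KO LPS. Every KO library was below every WT library. Per kilobase of exon, the most abundant of these genes over the 12 libraries were Cd68 (358 CPM per kb), the cathepsin genes Ctsz (349), Ctsb (284) and Ctss (276), and Psap (218), the precursor of the saposins that help hydrolases reach lipids. The lowest were Ctsk (1.29 CPM per kb) and Ids (0.686). All 48 passed the filter on low counts, and the smallest count behind any value below was 13 (Ctsk in KO LPS 3).

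**Figure D1:**
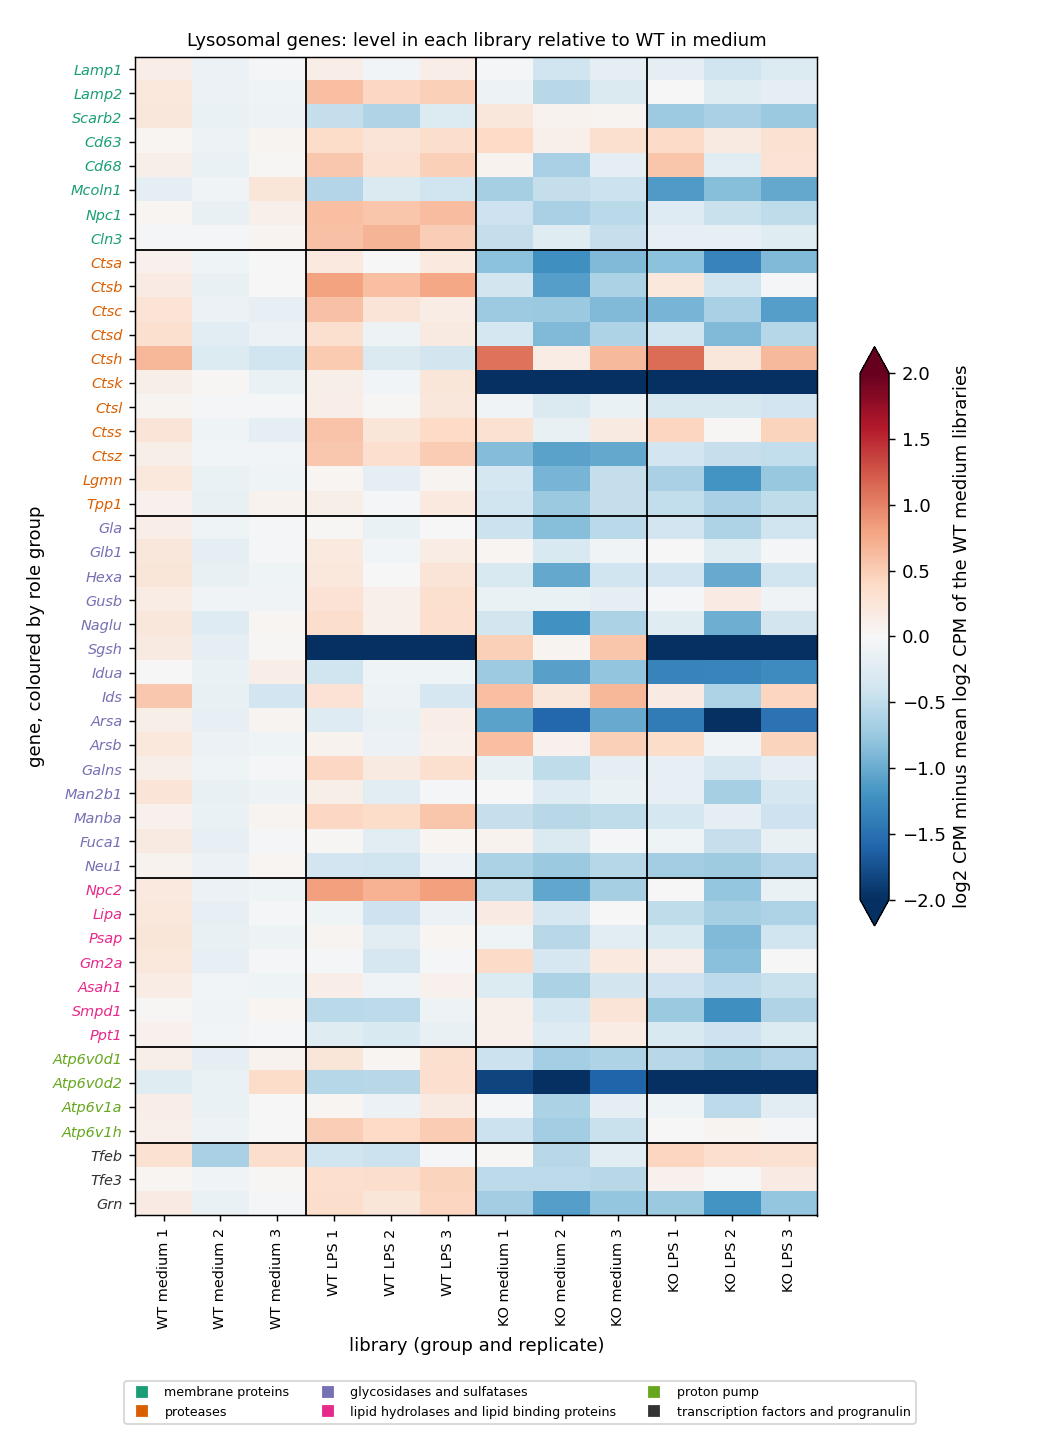
Level of each of the 48 lysosomal genes (rows, grouped and coloured by role) in each of the 12 libraries (columns), as log2 CPM minus the mean log2 CPM of the 3 WT medium libraries; red is higher, blue lower, and values beyond 2 in either direction have the end colours. The KO columns are mostly blue for the proteases, with Ctsk at the end of the scale and Atp6v0d2 at or near it, and Sgsh is dark in both LPS groups and not in either medium group.

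Many of the lysosomal genes were lower in KO cells. In medium, 23 of 48 (47.9%) were lower in KO at an adjusted p under 0.05 in edgeR's quasi-likelihood test, where 12.3% of the 26420 genes tested were lower. Only Cd63 (2.08%) was higher, against 6.88% of all genes tested. Under LPS, 29 of 48 (60.4%) were lower, against 12.7% of all genes, and none was higher, against 7.87%. In that last comparison 1 gene was higher at an unadjusted p under 0.05 in edgeR, and DESeq2 called none higher and 1 at an unadjusted p. Among the 16173 protein-coding genes tested, 17.3% were lower in KO in medium and 17.9% under LPS. The median log2 fold change over the 48 genes was -0.40 in medium and -0.47 under LPS, beside 0.04 and 0.07 over all genes tested. The KO libraries lay entirely below the WT libraries for 28 genes in medium and 33 under LPS, and entirely above for 1 in each. Over all genes tested the KO libraries lay entirely below for 19.6% in medium and 19.6% under LPS, and entirely above for 16.0% and 19.3%. Among protein-coding genes they lay entirely below for 25.8% and 24.7%.

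The same 23 genes were lower in KO in medium and under LPS, and no gene was called in opposite directions. Their log2 fold changes ran from -2.61 to -0.39 in medium. Of the 29 calls under LPS, 23 held in every planned change of scaling, filter, tool, covariate and sample set and on leaving out any 1 library; of the 23 in medium, 11 did (Ctsa, Ctsc, Ctsk, Ctsz, Gla, Idua, Arsa, Neu1, Atp6v1h, Tfe3 and Grn). The pseudogene share moved with the line in medium, and with its log2 value as a covariate 11 of the 48 were lower in medium, beside 6.79% of all genes tested. The 12 genes that no longer passed had log2 fold changes of -2.16 to -0.39 without the covariate and -1.98 to -0.33 with it. Under LPS 29 were lower with that covariate and 29 without it. The part of the pseudogene share in the line difference was not tested.

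The promoters of these genes were searched for the E-box CACGTG and for the CLEAR core TCACGTGA, which contains it. Both are palindromes, so a match reads the same on either strand. In the RefSeq windows of GRCm38.p6, from 250 bases before to 50 bases after an annotated start, 41 of the 48 genes had an entry. An E-box was found for 14 of 41 (34.1%), against 8.09% of the 27025 genes with a window. The CLEAR core was found for 7 of 41 (17.1%), against 1.12%. The 7 are Ctsa, Ctsd, Cln3, Mcoln1, Gla, Atp6v0d1 and Atp6v1a, and all but Atp6v1a were lower in KO in medium and under LPS. Of the 34 genes with a window but no core, 12 were lower in medium and 17 under LPS. Those lower genes without a core include Ctsz and Grn. The median log2 fold change of the 7 genes with a core was -0.58 in medium and -0.74 under LPS, beside -0.26 and -0.38 for the 34 without it. For the E-box, 8 of the 14 genes with it and 10 of the 27 without were lower in medium. Under LPS 11 and 12 were. Genes without a window could not be searched. Of these Asah1, Atp6v0d2, Atp6v1h, Ctsb and Npc1 were lower in KO in both conditions, Galns under LPS only, and Ctsh in neither. A match describes the letters in the window and not binding. CLEAR is known from lysosomal genes, so its higher share here is not independent of how the list was chosen. The stretches below show how the element sits in genes that were lower (Ctsa, Cln3, Ctsd, Mcoln1, Gla). Lamp1, which has 4 E-boxes and no CLEAR core, is also shown. So is Atp6v1a, which has a core and was not called in any comparison of the main fit. Each stretch is given 5′ to 3′ on the gene's own strand with the E-box or core in capitals. Positions are on GRCm38.p6, while the authors' counts were made on GRCm39. They are chr2:164833749-164833772 (plus strand) for Ctsa, chr7:126583340-126583397 (minus) for Cln3, chr7:142387908-142388077 (minus) for Ctsd, chr8:3500436-3500491 (plus) for Mcoln1, chrX:134601182-134601244 (minus) for Gla, chr8:13159088-13159160 (plus) for Lamp1 and chr16:44139373-44139402 (minus) for Atp6v1a, all before the start.
Ctsa: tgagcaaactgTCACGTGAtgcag
Cln3: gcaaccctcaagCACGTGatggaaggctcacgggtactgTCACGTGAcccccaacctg
Ctsd: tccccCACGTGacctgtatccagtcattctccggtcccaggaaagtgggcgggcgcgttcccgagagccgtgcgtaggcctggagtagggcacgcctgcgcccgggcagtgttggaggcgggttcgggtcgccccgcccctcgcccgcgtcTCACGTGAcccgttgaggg
Mcoln1: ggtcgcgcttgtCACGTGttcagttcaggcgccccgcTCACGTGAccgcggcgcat
Gla: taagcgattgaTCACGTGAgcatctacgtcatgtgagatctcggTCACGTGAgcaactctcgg
Lamp1: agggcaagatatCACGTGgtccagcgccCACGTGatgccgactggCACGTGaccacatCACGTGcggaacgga
Atp6v1a: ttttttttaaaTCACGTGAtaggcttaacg

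The transcription factor genes differed from each other. Tfe3 was at 78.2, 72.5 and 76.7 CPM in WT medium and 52.9, 52.5 and 51.7 in KO medium (log2 fold change -0.53 ± 0.07 SE, edgeR adjusted p = 0.000173). Under LPS it was at 95.9, 96.3 and 103 in WT and 80.2, 75.8 and 84.6 in KO (-0.30 ± 0.06, edgeR adjusted p = 0.00641). Every KO library was below every WT library of its condition. Tfeb was at 32.3, 16.6 and 33.2 CPM in WT medium and 26.5, 17.7 and 22.3 in KO medium, and the groups overlapped (-0.30 ± 0.24, edgeR adjusted p = 0.366). Under LPS the 3 KO libraries (35.1, 32.8 and 32.1) lay above the 3 WT libraries (19.9, 19.3 and 25.5), but the difference did not pass the test (0.63 ± 0.24, edgeR adjusted p = 0.0928). The Tfeb value in medium depended on the WT medium library 2, which stood at 16.6 CPM beside 32.3 and 33.2. Without it Tfeb was lower in KO in medium (-0.59, edgeR adjusted p = 0.0111). That library is in neither LPS group and enters the LPS comparison only through the shared fit. There the estimate hardly moved without it (0.62), but the test was passed (edgeR adjusted p = 0.00829). The difference under LPS also passed the test with library size alone as the scaling (0.70, adjusted p = 0.0482), with only the groups compared (0.61, 0.00429) and with the log2 pseudogene share as covariate (0.68, 0.00826).

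Progranulin and the cathepsins were lower in KO in both conditions in most cases. Grn, which encodes the secreted and lysosomal glycoprotein progranulin, was at 717, 587 and 624 CPM in WT medium and 395, 298 and 376 in KO medium (log2 fold change -0.85 ± 0.14 SE, edgeR adjusted p = 0.00161). Under LPS it was at 819, 754 and 858 in WT and 381, 280 and 375 in KO (-1.23 ± 0.14, edgeR adjusted p = 8.98e-05), a 2.35-fold lower level. The highest KO library was well below the lowest WT library in each condition.

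Of the 11 protease genes, 8 were lower in KO in medium and 9 under LPS, and none was higher. Ctsz, which encodes the carboxypeptidase cathepsin Z, was at 602, 533 and 535 CPM in WT medium and 305, 264 and 274 in KO medium (log2 fold change -0.99 ± 0.09 SE, edgeR adjusted p = 2.37e-05). Under LPS it was at 807, 700 and 794 in WT and 428, 402 and 394 in KO (-0.91 ± 0.09, edgeR adjusted p = 2.97e-05). The libraries of a group lay close together, and even the KO LPS libraries were below the WT libraries in medium. Ctsa, the protective protein that stabilizes beta-galactosidase and neuraminidase and whose core is printed above, was at 691, 611 and 654 in WT medium and 369, 277 and 355 in KO medium (-0.97 ± 0.15, edgeR adjusted p = 0.000834). Under LPS the values were 742, 648 and 747 against 370, 257 and 354 (-1.12 ± 0.15, edgeR adjusted p = 0.000218). Replicate 2 was the lowest library of each group, and the groups did not overlap.

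Ctsc encodes dipeptidyl peptidase 1, which activates serine proteases of immune cells. It was at 103, 78.3 and 75.9 CPM in WT medium and 51.3, 50.8 and 46.2 in KO medium (log2 fold change -0.80 ± 0.15 SE, edgeR adjusted p = 0.00381), and at 127, 102 and 93.7 against 44.7, 54.1 and 39.4 under LPS (-1.23 ± 0.15, edgeR adjusted p = 0.000162). The spread within WT, led by replicate 1, was wider than that within KO. Ctsk, the collagen-degrading protease known from osteoclasts, showed the largest fold of the list at a low level. It was at 3.6, 3.37 and 3.02 CPM in WT medium and 0.369, 0.641 and 0.629 in KO medium (-2.61 ± 0.23, edgeR adjusted p = 1.52e-05). Under LPS it was at 3.61, 3.19 and 3.93 against 0.326, 0.349 and 0.306 (-3.45 ± 0.24, edgeR adjusted p = 2.1e-06), a 10.92-fold lower level that rests on 13 to 19 counts per KO LPS library. The raw counts were 128 to 248 in the WT libraries and 13 to 31 in the KO libraries.

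The abundant cathepsins B and D were lower by less, with wider spread. Ctsb, a cysteine protease, was at 1803, 1462 and 1599 CPM in WT medium and 1251, 751 and 1037 in KO medium (log2 fold change -0.68 ± 0.19 SE, edgeR adjusted p = 0.0293). With LPS it was at 2834, 2459 and 2752 against 1873, 1228 and 1574 (-0.78 ± 0.19, edgeR adjusted p = 0.0123). The groups did not overlap, but the call in medium ended on leaving out WT medium 1 (adjusted p = 0.0738), KO medium 2 (0.0542) or KO medium 3 (0.0567). It also ended without the filter on low counts (0.0681) or with only the groups compared (0.0788). Ctsd, the aspartic protease, was at 559, 389 and 415 in WT medium and 350, 242 and 292 in KO medium (-0.63 ± 0.18, edgeR adjusted p = 0.0354), and at 558, 418 and 510 against 342, 244 and 301 under LPS (-0.74 ± 0.18, edgeR adjusted p = 0.0134). Its call in medium was lost without WT medium 1 (adjusted p = 0.0942), WT LPS 3 (0.0531), KO medium 2 (0.0765), KO medium 3 (0.0677) or KO LPS 3 (0.0524), and under LPS without WT LPS 1 (0.0591) or KO LPS 2 (0.0512). Without the filter on low counts (0.0594) or with only the groups compared (0.0849) the Ctsd call in medium was lost too. Of the 31-base words in the Ctsd exons, 33.16% also occur in another annotated gene, so its count depends on how shared reads were handled, which the sources used here do not give.

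The other proteases divided. Lgmn (legumain, an asparaginyl endopeptidase) and Tpp1 (tripeptidyl peptidase 1) were lower in KO in both conditions: Lgmn by a log2 fold change of -0.57 ± 0.17 in medium (edgeR adjusted p = 0.0398) and -0.82 ± 0.17 under LPS (0.00552), and Tpp1 by -0.54 ± 0.10 (0.00369) and -0.64 ± 0.10 (0.000981). The Lgmn call in medium was lost without WT medium 1 (adjusted p = 0.103), WT LPS 1 (0.058), WT LPS 3 (0.0571), KO medium 2 (0.0798), KO medium 3 (0.0556) or KO LPS 3 (0.0553). It was also lost without the filter on low counts (0.0683) or with only the groups compared (0.0838). Ctsl was at 502, 479 and 476 CPM in WT medium and 462, 396 and 445 in KO medium, which did not pass the test (-0.16 ± 0.08, edgeR adjusted p = 0.196). In the LPS groups it was at 531, 492 and 569 in WT and 390, 390 and 371 in KO (-0.47 ± 0.08, edgeR adjusted p = 0.002), with every KO library below every WT library. Ctss, the cathepsin that trims the invariant chain of MHC class II, was at 386, 303 and 284 CPM in WT medium and 396, 291 and 366 in KO medium (0.11 ± 0.16, edgeR adjusted p = 0.623). In LPS-treated cells it stood at 475, 380 and 423 against 435, 328 and 438 (-0.09 ± 0.16, edgeR adjusted p = 0.801). The Ctss libraries of the lines overlapped in both conditions. Ctsh, an aminopeptidase, was at 28.3, 14.8 and 13.6 CPM in WT medium and 37.8, 19.9 and 27.9 in KO medium, and its replicate 1 stood above the others in each group (0.60 ± 0.37, edgeR adjusted p = 0.263). Under LPS it was at 25.8, 14.6 and 13.9 in WT and 38.7, 20.8 and 28.1 in KO (0.69 ± 0.37, edgeR adjusted p = 0.252).

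**Figure D2:**
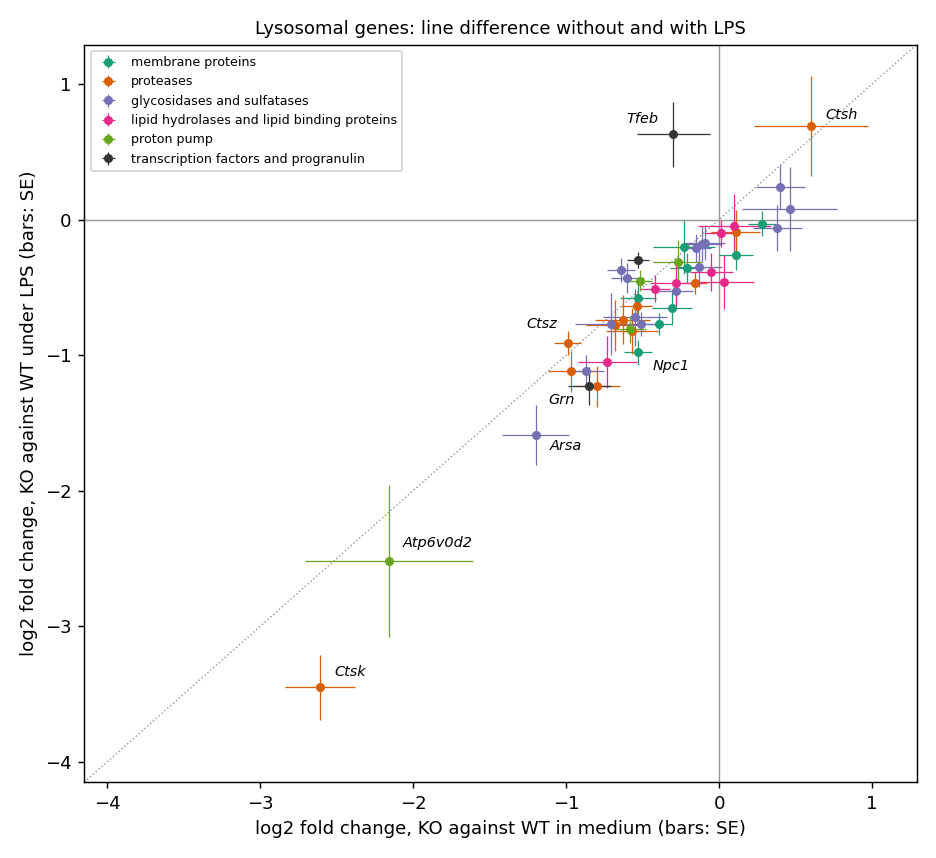
Log2 fold change of KO against WT in medium (horizontal axis) and under LPS (vertical axis) for the 48 lysosomal genes, coloured by role, with bars of 1 SE; the dotted line marks equal values. Most points lie below 0 on both axes, with Ctsk and Atp6v0d2 farthest out, and Tfeb lies apart at -0.30 in medium and 0.63 under LPS.

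Of the 4 proton pump genes, 3 were lower in KO in each condition. Atp6v0d1, the widely expressed d subunit of the membrane sector, was at 212, 174 and 205 CPM in WT medium and 145, 122 and 128 in KO medium (log2 fold change -0.58 ± 0.10 SE, edgeR adjusted p = 0.00203). After LPS its level was 233, 202 and 245 against 133, 124 and 131 (-0.81 ± 0.10, edgeR adjusted p = 0.000165). Its KO libraries lay close together and below all WT libraries. The d2 isoform, Atp6v0d2, known from osteoclasts and macrophages, was at 9.0, 9.69 and 13.7 CPM in WT medium and 2.96, 0.817 and 3.49 in KO medium (-2.16 ± 0.55, edgeR adjusted p = 0.0195). In cells given LPS it was at 7.17, 7.23 and 13.4 against 2.35, 0.662 and 1.86 (-2.52 ± 0.56, edgeR adjusted p = 0.00809). WT replicate 3 was high and KO replicate 2 low in each condition. The call in medium ended on leaving out WT medium 3 (adjusted p = 0.0527) or without the filter on low counts (0.0622).

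Atp6v1h, the regulatory H subunit of the cytosolic sector, was at 91.6, 79.6 and 84.2 CPM in WT medium and 63.0, 52.3 and 62.3 in KO medium (log2 fold change -0.52 ± 0.08 SE, edgeR adjusted p = 0.00126), and at 119, 112 and 121 against 85.4, 88.4 and 82.8 under LPS (-0.45 ± 0.08, edgeR adjusted p = 0.00244). Atp6v1a, the catalytic A subunit, was at 603, 500 and 543 CPM in WT medium and 531, 352 and 478 in KO medium (-0.27 ± 0.16, edgeR adjusted p = 0.234), and at 564, 505 and 621 against 515, 379 and 473 under LPS (-0.31 ± 0.16, edgeR adjusted p = 0.23). The Atp6v1h groups were separate, and those of Atp6v1a overlapped.

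Among the 8 membrane protein genes, 3 were lower and 1 higher in KO in medium, and 5 were lower under LPS. Npc1, which carries cholesterol out of the lysosome, was at 85.3, 75.1 and 89.2 CPM in WT medium and 62.2, 53.0 and 57.2 in KO medium (log2 fold change -0.53 ± 0.09 SE, edgeR adjusted p = 0.00171). The LPS groups were at 126, 122 and 127 in WT and 69.6, 61.2 and 58.6 in KO (-0.98 ± 0.09, edgeR adjusted p = 1.54e-05). The WT LPS libraries were the highest group, and the KO LPS libraries stayed below the WT libraries in medium. Cln3, a membrane protein mutated in juvenile Batten disease, was at 38.2, 37.6 and 40.2 CPM in WT medium and 27.8, 32.7 and 28.0 in KO medium (-0.39 ± 0.08, edgeR adjusted p = 0.00608). Its LPS values were 58.2, 61.8 and 54.2 against 34.6, 34.6 and 32.8 (-0.77 ± 0.08, edgeR adjusted p = 3.87e-05). For each of these genes the KO libraries were below all WT libraries of the condition.

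Mcoln1, the calcium release channel of the lysosome, was at 57.3, 62.2 and 77.2 CPM in WT medium and 41.0, 46.8 and 48.1 in KO medium (log2 fold change -0.53 ± 0.12 SE, edgeR adjusted p = 0.011). With LPS it was at 43.5, 53.4 and 49.3 against 29.7, 35.9 and 31.9 (-0.58 ± 0.12, edgeR adjusted p = 0.00548). The groups were separate, and the call in medium was lost without WT medium 3 (adjusted p = 0.0589) or KO medium 1 (0.0624). Lamp1 was at 508, 426 and 456 CPM in WT medium and 450, 351 and 405 in KO medium, which overlapped (-0.21 ± 0.11, edgeR adjusted p = 0.20). In the LPS groups it was at 507, 447 and 509 against 408, 352 and 383 (-0.36 ± 0.11, edgeR adjusted p = 0.0389). That call was lost without WT LPS 1 (0.123), WT LPS 3 (0.128), KO LPS 1 (0.0511), KO LPS 2 (0.116) or KO LPS 3 (0.0976). Lamp2 was lower in KO under LPS, at 502, 440 and 461 against 330, 279 and 288 CPM (-0.65 ± 0.13, edgeR adjusted p = 0.00366). In medium it did not pass the test (-0.31 ± 0.13, edgeR adjusted p = 0.111).

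Cd63, a tetraspanin of late endosomes and exosomes, was the only gene of the list called higher in KO. It was at 96.5, 87.1 and 97.0 CPM in WT medium and 123, 100 and 117 in KO medium (log2 fold change 0.28 ± 0.09 SE, edgeR adjusted p = 0.046), and at 120, 112 and 119 against 122, 106 and 116 under LPS (-0.03 ± 0.09, edgeR adjusted p = 0.909). The call in medium held on leaving out KO medium 2 or KO LPS 2 and was lost on leaving out any of the other 10 libraries: WT medium 1, 2 or 3 (adjusted p = 0.139, 0.107 and 0.0688), WT LPS 1, 2 or 3 (0.0695, 0.0607 and 0.0691), KO medium 1 or 3 (0.172 and 0.175) and KO LPS 1 or 3 (0.0577 and 0.0701). Of its 31-base words, 15.92% occur elsewhere. Cd68, the phagocyte membrane glycoprotein, was at 442, 375 and 414 CPM in WT medium and 429, 260 and 360 in KO medium (-0.23 ± 0.20, edgeR adjusted p = 0.418). In LPS-treated cells it stood at 592, 503 and 571 against 599, 351 and 501 (-0.20 ± 0.20, edgeR adjusted p = 0.597), with KO replicate 2 low in both conditions. Scarb2, the receptor that brings glucocerebrosidase to the lysosome, did not pass the test between lines in medium (0.11 ± 0.11, edgeR adjusted p = 0.458) or under LPS (-0.26 ± 0.11, edgeR adjusted p = 0.119).

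Of the 15 glycosidase and sulfatase genes, 5 were lower in KO in medium and 8 under LPS. Arsa, arylsulfatase A, which removes sulfate from sulfatides, was at 33.6, 27.7 and 32.4 CPM in WT medium and 14.8, 10.5 and 15.4 in KO medium (log2 fold change -1.20 ± 0.22 SE, edgeR adjusted p = 0.00251). After LPS its level was 26.0, 28.4 and 34.1 against 11.8, 6.54 and 11.2 (-1.59 ± 0.22, edgeR adjusted p = 0.000319), 3.00-fold lower. Idua, alpha-L-iduronidase of glycosaminoglycan breakdown, was at 27.7, 25.2 and 30.4 CPM in WT medium and 16.7, 13 and 16 in KO medium (-0.87 ± 0.12, edgeR adjusted p = 0.000473). In cells given LPS it was at 20.9, 26.1 and 26.0 against 11, 11.1 and 11.6 (-1.12 ± 0.12, edgeR adjusted p = 5.64e-05). For both genes every KO library was below every WT library of its condition.

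Neu1 (neuraminidase), Gla (alpha-galactosidase) and Manba (beta-mannosidase) were the other glycosidase genes lower in both conditions. Neu1 was at 141, 124 and 138 CPM in WT medium against 86.6, 80.6 and 90.8 in KO medium (log2 fold change -0.64 ± 0.09 SE, edgeR adjusted p = 0.000473), and it differed by -0.37 ± 0.09 under LPS (edgeR adjusted p = 0.0127, and 0.0589 without WT LPS 3). Gla was at 107, 91.9 and 95.5 CPM against 72.7, 54.4 and 67.1 in medium (-0.60 ± 0.11, edgeR adjusted p = 0.00304), and it differed by -0.43 ± 0.11 under LPS (edgeR adjusted p = 0.0172). Under LPS the call for Gla ended on leaving out WT LPS 1 (adjusted p = 0.0638), WT LPS 3 (0.0605) or KO LPS 2 (0.0608). Manba was lower by a log2 fold change of -0.51 ± 0.09 in medium (edgeR adjusted p = 0.00182) and -0.77 ± 0.09 under LPS (7.36e-05). Galns, Hexa and Naglu, which act on keratan sulfate, GM2 ganglioside and heparan sulfate, passed the test under LPS only, at -0.53 ± 0.11 (edgeR adjusted p = 0.00379), -0.72 ± 0.21 (0.0304) and -0.77 ± 0.23 (0.0344). In medium they were at -0.28 ± 0.11 (edgeR adjusted p = 0.0852), -0.55 ± 0.21 (0.0898) and -0.71 ± 0.23 (0.0522). There, too, the KO libraries of each were below the WT libraries, and DESeq2 called Naglu lower (-0.73, adjusted p = 0.023). Under LPS the Hexa call was lost without WT LPS 1 (0.0879), WT LPS 3 (0.0961) or KO LPS 2 (0.0918), and the Naglu call without WT LPS 1 (0.102), WT LPS 2 (0.0514), WT LPS 3 (0.0993), KO LPS 2 (0.107) or KO LPS 3 (0.067). Both were also lost without the filter on low counts (0.0577 and 0.0512). Gusb (beta-glucuronidase), the most abundant of this group by CPM, was at 441, 379 and 382 CPM in WT medium and 365, 365 and 352 in KO medium (-0.15 ± 0.10, edgeR adjusted p = 0.268), and at 488, 429 and 500 against 395, 450 and 381 under LPS (-0.21 ± 0.10, edgeR adjusted p = 0.164).

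Of the 7 lipid genes, Npc2 and Asah1 were lower in KO in both conditions. Npc2, the soluble protein that hands cholesterol to NPC1, was at 332, 266 and 273 CPM in WT medium and 203, 141 and 182 in KO medium (log2 fold change -0.73 ± 0.19 SE, edgeR adjusted p = 0.0195). The LPS groups were at 510, 469 and 508 against 288, 169 and 263 (-1.05 ± 0.19, edgeR adjusted p = 0.00198). The groups did not overlap, but the call in medium was lost without WT medium 1 (adjusted p = 0.0562) or KO medium 2 (0.0507). Asah1 (acid ceramidase) was at 117, 102 and 99.8 CPM against 87.4, 68.5 and 82.2 in medium (-0.42 ± 0.10, edgeR adjusted p = 0.0126), and it differed by -0.51 ± 0.10 under LPS (edgeR adjusted p = 0.00331). The Asah1 call in medium was lost with only the groups compared (edgeR adjusted p = 0.0606). Psap, the most abundant lipid gene, was at 801, 616 and 637 CPM in WT medium and 643, 462 and 588 in KO medium (-0.28 ± 0.17, edgeR adjusted p = 0.257). Its LPS values were 708, 584 and 699 against 549, 370 and 514 (-0.47 ± 0.17, edgeR adjusted p = 0.0774). Neither difference passed the test in the main fit.

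**Figure D3:**
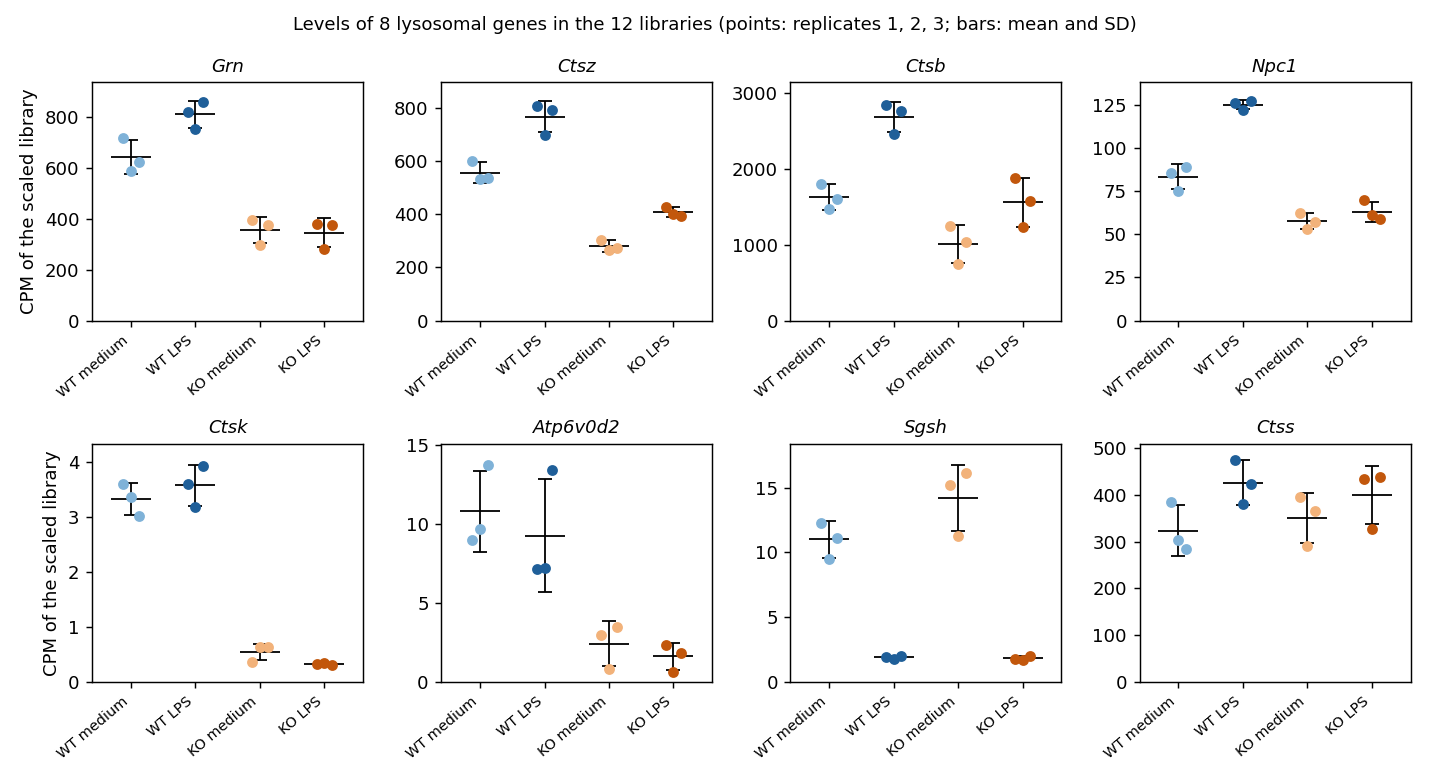
Level in CPM of the scaled library (vertical axis, from 0) of 8 lysosomal genes in the 4 groups; points are the 3 libraries of a group and bars the mean and SD. Grn, Ctsz, Npc1, Ctsk and Atp6v0d2 are lower in both KO groups, Sgsh is low in both LPS groups, and the Ctss groups of the lines overlap.

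LPS changed fewer of the lysosomal genes, and the counts moved with the scaling. In WT cells 11 of 48 (22.9%) rose, against 16.3% of all genes tested and 23.2% of protein-coding genes, and 4 (8.33%) fell, against 16.3% of all genes and 13.6% of protein-coding genes. In KO cells 4 (8.33%) rose, against 25.3% of all genes, and 8 (16.7%) fell, against 26.8%. Among protein-coding genes 33.2% rose and 17.0% fell in KO, so the share of the list that fell is close to that of protein-coding genes. The median log2 fold change over the list was 0.09 in WT and -0.02 in KO, beside -0.07 and -0.04 over all genes tested. The LPS libraries lay entirely above the medium libraries for 13 genes and below for 6 in WT, and for 7 and 9 in KO. As shares these are 27.1% and 12.5% in WT, beside 24.0% and 19.0% of all genes tested, and 14.6% and 18.8% in KO, beside 28.8% and 32.6%. With scaling to library size alone the medians of all genes moved to -0.40 in WT and -0.29 in KO. The counts of the list then became 1 risen and 16 fallen in WT, and 21 fell in KO. Over all genes that scaling turned 4303 risen and 4297 fallen in WT into 2104 and 9985, and 6679 and 7070 in KO into 4182 and 10422. Under the same scaling the line comparison under LPS went from 2080 higher and 3351 lower genes to 2922 and 2936.

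The largest change with LPS was the fall of Sgsh, the sulfamidase of heparan sulfate breakdown, in both lines. It was at 12.3, 9.49 and 11.1 CPM in WT medium and 1.93, 1.80 and 2.04 in WT LPS (log2 fold change -2.51 ± 0.17 SE, edgeR adjusted p = 8.53e-07). In KO cells it was at 15.2, 11.3 and 16.1 in medium and 1.78, 1.73 and 2.03 under LPS (-2.95 ± 0.17, edgeR adjusted p = 2.81e-07). The LPS libraries of the lines lay in the same narrow range, which rests on 72 to 129 counts per library, and the lines did not pass the test in either condition. Of the Sgsh exon bases, 21.64% overlap Card14 on the opposite strand. Card14 fell too, from a mean of 24.6 to 6.29 CPM in WT and from 24.4 to 4.21 in KO, and the sources used here do not give the strand setting of the authors' counting, so reads in the shared stretch cannot be assigned with certainty.

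The genes that rose with LPS in both lines were Ctsb, Ctsz, Atp6v1h and Tfe3, whose values are given above. Ctsb rose by a log2 fold change of 0.73 ± 0.19 in WT (edgeR adjusted p = 0.0145) and 0.62 ± 0.19 in KO (0.0183). The WT groups were separate and the KO groups overlapped. The Ctsb call in WT was lost without WT medium 2 (adjusted p = 0.0548) or WT LPS 1 (0.052), and in KO without KO medium 2 (0.0698), KO medium 3 (0.0502) or KO LPS 1 (0.0784). Ctsz rose by 0.46 ± 0.09 in WT (edgeR adjusted p = 0.00285) and 0.54 ± 0.09 in KO (0.00101), and Atp6v1h by 0.46 ± 0.08 (0.00169) and 0.53 ± 0.08 (0.000657). Tfe3 rose by 0.38 ± 0.06 in WT (edgeR adjusted p = 0.00104) and 0.61 ± 0.07 in KO (3.04e-05). With library size alone as the scaling, the rises of Ctsz, Atp6v1h and Tfe3 in WT were 0.13, 0.13 and 0.04 and no longer passed the test. Ctsb was then at 0.39 in WT (adjusted p = 0.0812) and 0.36 in KO (0.0884), and it also failed the test without the filter on low counts (0.0652 and 0.0942). With the log2 pseudogene share as covariate, the rises of Ctsb (0.54, edgeR adjusted p = 0.49), Ctsz (0.54, 0.124) and Atp6v1h (0.44, 0.175) in KO no longer passed. Neither did that of Ctsb in WT (0.69, 0.0589). In KO the share itself separated the groups, at 13.4 to 15% in medium and 7.08 to 7.80% under LPS. The covariate and LPS are thus hard to tell apart in KO. Over all genes the calls there went from 6679 risen and 7070 fallen to 1334 and 659 with it.

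Other genes passed the test in WT alone. Npc2 rose by a log2 fold change of 0.77 ± 0.19 in WT (edgeR adjusted p = 0.00989) and was at 0.45 ± 0.19 in KO (0.0628). Cln3 rose by 0.59 ± 0.08 in WT (edgeR adjusted p = 0.000212) against 0.20 ± 0.08 in KO (0.0543), and Npc1 by 0.58 ± 0.09 (0.000524) against 0.14 ± 0.09 (0.23). Of the Cln3 exon bases, 7.65% overlap Apobr on the opposite strand. Apobr went from a mean of 29.2 to 62.5 CPM with LPS in WT and from 26.2 to 39.4 in KO. As for Sgsh, reads in the shared stretch cannot be assigned with certainty. Lamp2 rose by 0.49 ± 0.13 in WT (edgeR adjusted p = 0.014), Manba by 0.45 ± 0.09 (0.00252), Cd63 by 0.32 ± 0.09 (0.0183, but -0.02 with scaling to library size alone) and Galns by 0.30 ± 0.11 (0.048, but -0.04 with that scaling). Npc1 was the only one of the 11 rises in WT that held in every alternative of scaling, filter, tool, covariate and sample set and on leaving out any 1 library. The Lamp2 call was lost without WT medium 2 (adjusted p = 0.0604) or WT LPS 1 (0.058). The Cd63 call was lost without WT medium 1 (0.0799), WT medium 2 (0.149), WT LPS 1 (0.064), WT LPS 3 (0.0581) or KO medium 3 (0.0534). The Galns call was lost without WT medium 1, 2 or 3 (0.0924, 0.237 and 0.115), WT LPS 1 or 3 (0.159 and 0.109), KO medium 1 or 3 (0.0791 and 0.096) or KO LPS 1 or 3 (0.0585 and 0.0622). With the pseudogene share as covariate Lamp2 (0.0576), Cd63 (0.138) and Galns (0.161) no longer passed the test.

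Besides Sgsh, Scarb2 and Mcoln1 fell with LPS in both lines. Scarb2 was at 114, 89.4 and 91.2 CPM in WT medium and 69.9, 64.6 and 80.5 in WT LPS (log2 fold change -0.45 ± 0.11 SE, edgeR adjusted p = 0.00826). In KO it was at 114, 103 and 101 in medium and 58.8, 62.2 and 58.6 under LPS (-0.82 ± 0.11, edgeR adjusted p = 0.000149). The LPS libraries were below the medium libraries in each line. Mcoln1 fell by 0.43 on the log2 scale in WT (edgeR adjusted p = 0.0219) and by 0.48 in KO (0.00816), and its call in WT was lost without WT medium 3 (0.0618), WT LPS 1 (0.0972) or WT LPS 3 (0.0613). Neu1 fell by 0.30 in WT (edgeR adjusted p = 0.0274), a call lost without WT LPS 1 (0.117) or WT LPS 2 (0.102), with RLE scaling (0.0705) or with DESeq2 (0.0771), and was at -0.02 ± 0.09 in KO (0.861).

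In KO cells 5 further genes fell with LPS. Smpd1 (acid sphingomyelinase) was at 11.6, 8.42 and 12.8 CPM in KO medium and 6.41, 4.60 and 7.11 in KO LPS (log2 fold change -0.86 ± 0.20 SE, edgeR adjusted p = 0.00474), against -0.37 ± 0.20 in WT (0.168). Lipa (lysosomal acid lipase) was at 309, 220 and 274 CPM in KO medium and 195, 174 and 180 in KO LPS (-0.55 ± 0.14, edgeR adjusted p = 0.00725), against -0.21 ± 0.14 in WT (0.26). Ctsk was at -0.73 ± 0.25 (edgeR adjusted p = 0.0284), Idua at -0.44 ± 0.12 (0.0114) and Ppt1 (palmitoyl-protein thioesterase) at -0.34 ± 0.10 (0.0171). The LPS libraries of these 5 genes lay below the KO medium libraries. In WT Ctsk was at 0.10 ± 0.21 (edgeR adjusted p = 0.725), Idua at -0.19 ± 0.12 (0.241) and Ppt1 at -0.23 ± 0.10 (0.101). The WT groups of Ppt1 were separate, and its fall in WT passed the test in some alternatives. Among these were library size alone (-0.57, edgeR adjusted p = 0.00032) and only the groups compared (-0.32, 0.00448). The Ctsk call was lost without KO medium 2 (0.0712), KO medium 3 (0.0805), KO LPS 1 (0.0706), KO LPS 2 (0.0506) or KO LPS 3 (0.0797), and the Ppt1 call without KO LPS 2 (0.0604). DESeq2 called neither Ctsk (adjusted p = 0.0643) nor Ppt1 (0.0549), and with only the groups compared Ctsk was at 0.0574. With the pseudogene share as covariate Lipa (-0.64, edgeR adjusted p = 0.205), Smpd1 (-0.89, 0.188), Ctsk (-0.50, 0.614) and Ppt1 (-0.34, 0.437) no longer passed the test. As said above, that share separates medium from LPS in KO by itself.

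Several of the best known lysosomal genes did not pass the test for LPS in either line in the main fit, though some did under alternatives. The log2 fold change of Lamp1 was 0.07 ± 0.11 in WT (edgeR adjusted p = 0.622, and -0.26 with scaling to library size alone) and -0.08 ± 0.11 in KO (0.578). For Ctsd it was 0.12 ± 0.18 in WT (edgeR adjusted p = 0.622) and 0.01 ± 0.18 in KO (0.98), and for Ctsl 0.13 ± 0.08 (0.256) and -0.18 ± 0.08 (0.0962). Ctsl libraries of the WT groups overlapped, and in KO the LPS libraries lay below the medium libraries. The fall of Ctsl in KO passed the test in some alternatives. Among these were protein-coding genes only (-0.33, edgeR adjusted p = 0.00429) and a count minimum of 50 (-0.21, 0.0248). Ctss was at 0.39 ± 0.16 in WT (edgeR adjusted p = 0.0803) and 0.19 ± 0.16 in KO (0.345), and Cd68 at 0.44 ± 0.20 (0.116) and 0.47 ± 0.20 (0.0717). All 3 WT LPS libraries were above the WT medium libraries for Cd68, with overlap in KO. Grn was at 0.33 ± 0.14 in WT (edgeR adjusted p = 0.0912), where its groups were separate, and -0.05 ± 0.14 in KO (0.807). With a replicate block in the fit, Ctss (0.40, edgeR adjusted p = 0.0108), Cd68 (0.44, 0.0147) and Grn (0.34, 0.0108) rose in WT. Cd68 then also rose in KO (0.46, edgeR adjusted p = 0.00754). Atp6v0d2 was at -0.22 ± 0.52 in WT (edgeR adjusted p = 0.762) and -0.59 ± 0.55 in KO (0.392). Tfeb was at -0.34 ± 0.24 in WT (edgeR adjusted p = 0.286) and 0.59 ± 0.24 in KO (0.0574). Without WT medium 2 both passed the test, at -0.66 in WT (adjusted p = 0.0096) and 0.54 in KO (0.00699), although that library is in neither KO group. The WT value also passed with library size alone (-0.68, 0.0323) and with the pseudogene covariate (-0.73, 0.0204), and the KO value with DESeq2 (0.64, 0.0355) and with only the groups compared (0.59, 0.00783).

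**Figure D4:**
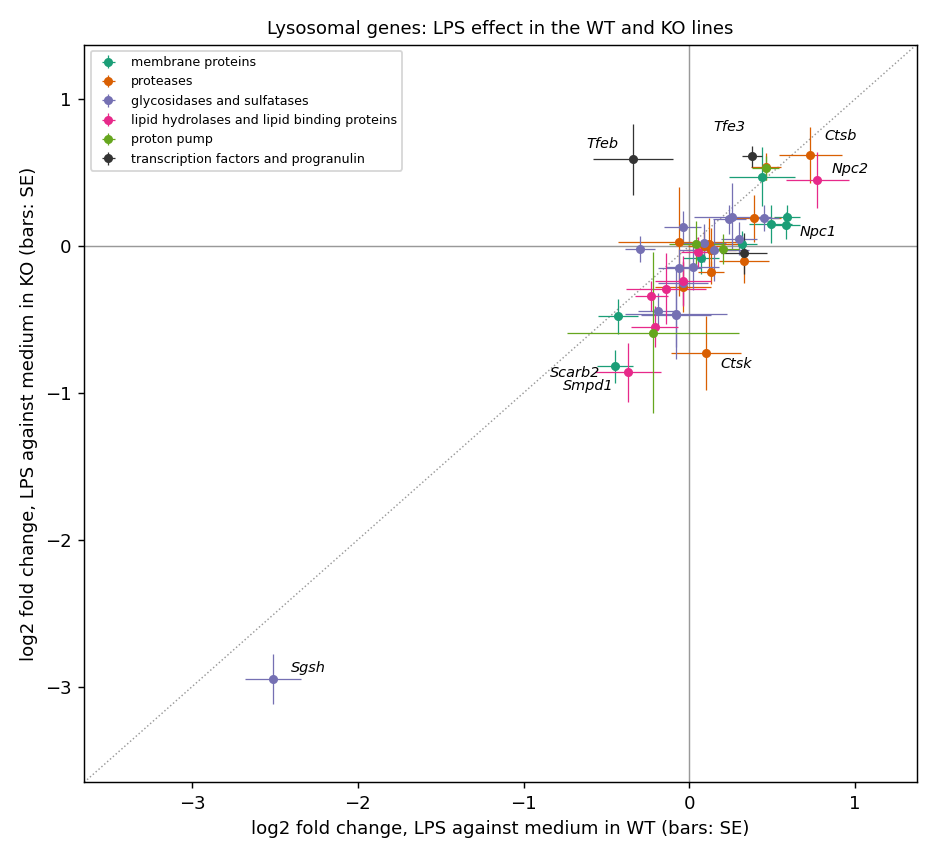
Log2 fold change of LPS against medium in WT (horizontal axis) and in KO (vertical axis) for the 48 lysosomal genes, coloured by role, with bars of 1 SE; the dotted line marks equal values. Sgsh stands alone at -2.51 and -2.95, and most other points lie within 1 log2 unit of 0, more of them below the dotted line than above it.

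No lysosomal gene passed the test of the difference itself, the interaction of line and LPS, where 0.693% of all genes tested were positive and 0.908% negative. By edgeR 2 genes were positive (Tfe3 and Tfeb) and 6 negative (Cd63, Cln3, Ctsk, Ctsl, Npc1 and Scarb2) at an unadjusted p under 0.05, and DESeq2 called none (2 and 5 unadjusted). The estimate was negative for 40 of the 48 genes, and the median was -0.18, beside -0.02 over all genes. All 12 libraries enter every such estimate, so the 40 are not independent of each other. Tfeb had the largest positive estimate (0.93 ± 0.34 SE, edgeR adjusted p = 0.25, but 1.20 and 0.00857 without WT medium 2), and Ctsk the largest negative one (-0.84 ± 0.32, edgeR adjusted p = 0.283). The estimates for Npc1 (-0.45 ± 0.13, edgeR adjusted p = 0.135) and Cln3 (-0.39 ± 0.11, edgeR adjusted p = 0.152) had the smallest adjusted p of the list. With protein-coding genes only, the Npc1 estimate passed the test (-0.50, edgeR adjusted p = 0.0324). In the main fit a rise called in WT and not in KO, as for Npc1 and Cln3, was not shown to differ between the lines. Nor was a line difference called only under LPS shown to differ between the conditions.

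Other genes of the same pathway, 106 in 7 lists that do not include the 48, were counted the same way. In KO 41 (38.7%) were lower and 6 higher in medium, and 49 (46.2%) lower and 6 higher under LPS, where 12.3% and 12.7% of all genes tested were lower. Among protein-coding genes 17.3% and 17.9% were lower, and 7.67% and 11.2% higher. With LPS 36 (34.0%) rose and 23 (21.7%) fell in WT, beside 16.3% and 16.3% of all genes. In KO 29 (27.4%) rose and 29 (27.4%) fell, close to the 25.3% and 26.8% of all genes. Of 14 other V-ATPase subunits, 6 were lower in KO in medium and 7 under LPS, and none higher, for example Atp6v1d (log2 fold change -0.82 ± 0.09 and -1.0 ± 0.09). With LPS 9 of the 14 (64.3%) rose in WT and 6 (42.9%) in KO, led by Atp6v0a1 (0.97 ± 0.10 and 0.82 ± 0.10). Among protein-coding genes 23.2% rose in WT and 33.2% in KO. The median log2 fold change of the 14 with LPS was 0.29 in WT and 0.18 in KO. LPS counts of the 7 lists with scaling to library size alone are not given here. That scaling lowered the LPS values of the 48 genes by 0.33 to 0.34 in WT and 0.25 to 0.26 in KO. Of 20 other hydrolases and cofactors, 10 were lower in KO in medium and 13 under LPS, led by Acp5 in medium (-2.87 ± 0.28) and Ctsf under LPS (-2.72 ± 0.24). Acp5, the tartrate-resistant acid phosphatase, rose with LPS by 2.66 ± 0.26 in WT and 4.03 ± 0.29 in KO.

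Of 10 sorting genes, 2 (20.0%) were lower in KO in medium and 3 (30%) under LPS, beside 17.3% and 17.9% of protein-coding genes. Igf2r, the cation-independent mannose 6-phosphate receptor that carries new hydrolases to the lysosome, was at 159, 159 and 199 CPM in WT medium and 34.8, 24.8 and 39.2 in KO medium (log2 fold change -2.39 ± 0.22 SE, edgeR adjusted p = 2.66e-05). With LPS it was at 209, 215 and 289 against 39.3, 33.2 and 53.3 (-2.5 ± 0.22, edgeR adjusted p = 1.31e-05), with the groups far apart. M6pr, the other mannose 6-phosphate receptor, did not pass the test between lines (0.01 ± 0.09 and -0.05 ± 0.09) and rose with LPS by 1.23 ± 0.09 in WT and 1.17 ± 0.09 in KO. Of 20 other membrane proteins and transporters, 8 were lower and 3 higher in KO in medium, with the chloride-proton exchanger gene Clcn7 at -0.90 ± 0.09 and Laptm5 at 0.91 ± 0.11. Of 17 genes of nutrient sensing and TFE control, 4 (23.5%) were lower and 1 (5.88%) higher in KO in medium. These shares are near the 17.3% and 7.67% of protein-coding genes. The higher one, Rragd, a Rag GTPase, was at 10.5, 8.35 and 7.09 CPM in WT medium and 31.8, 22.9 and 28.3 in KO medium (1.68 ± 0.18, edgeR adjusted p = 6.74e-05). Of 20 autophagy genes, 9 (45.0%) were lower and 2 (10.0%) higher in KO in medium, among them Map1lc3a (-1.18 ± 0.27) and Gabarapl1 (0.73 ± 0.16). Sqstm1 rose with LPS by 2.76 ± 0.18 in WT and 3.06 ± 0.18 in KO. Of 5 cathepsin inhibitors, 2 were lower in KO in medium and 3 under LPS, with Cstb (cystatin B) at -0.77 ± 0.11 and -0.73 ± 0.11.

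Many of the 48 genes had the same lowest library within a group. Replicate 2 was the lowest library of its group for 39 of 48 genes in WT medium, 38 in WT LPS, 41 in KO medium and 35 in KO LPS. Over all genes tested the same library was the lowest for 43.6%, 46.6%, 33.5% and 40.3% of genes. Among protein-coding genes tested it was the lowest for 58.5%, 50.1%, 39.8% and 42.4%. Replicate 1 was the highest library for 40 genes in WT medium, 37 in KO medium and 30 in KO LPS, and replicate 3 for 25 in WT LPS. The highest library was not counted over all genes, so these counts have no share to stand beside. Without both KO libraries numbered 2, a choice made after the data were seen, 23 genes were lower in KO in medium and 28 under LPS. In the main fit 13 genes were not called in any comparison. They were Arsb, Atp6v1a, Cd68, Ctsh, Ctss, Fuca1, Glb1, Gm2a, Gusb, Ids, Man2b1, Psap and Tfeb. An adjusted p above the threshold does not show that they did not differ. Tfeb, Cd68 and Ctss passed under the alternatives given above. Psap was lower in KO under LPS with the replicate block (-0.49, edgeR adjusted p = 0.00248). It also passed there with only the groups compared (-0.49, 0.0323) and with protein-coding genes only (-0.51, 0.0225). With the replicate block Arsb, Atp6v1a, Ctsh, Fuca1, Glb1 and Man2b1 each passed the test in some comparison. Gusb rose with LPS in WT with DESeq2 (0.28, adjusted p = 0.0304).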

How the data were processed

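RNA from 12 cultures of SIM-A9 cells was sequenced from stranded, ribosome-depleted total RNA libraries. The authors deposited 1 table of raw counts per gene; per the submitters' processing notes they used FastQC 0.11.9, Trimmomatic 0.39, STAR 2.7.9a, featureCounts and DESeq2 1.32.0 with the build GRCm39. Which annotation release and strand setting they used, and how reads matching several genes were handled, is not given in the sources used here.

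Symbols and exon lengths came from GENCODE M21; 52083 of 55416 gene identifiers had a symbol, and those without one held 6.49% of the counts. The deposited counts were fitted with edgeR 4.0.16 (limma 3.58.1, R 4.3.3) as 4 group means over all 12 libraries, with TMM scaling, a filter at a count minimum of 10, and the robust quasi-likelihood test. P-values were adjusted (Benjamini-Hochberg) over the 26420 genes tested and called under 0.05, two-sided. The biological coefficient of variation was 0.235, so counting error is small beside it for all but the lowest genes. Errors of log2 fold changes are SEs. CPM uses the scaled library size. The fit was tested on simulated counts.

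The members and lists were chosen with earlier results of these data known, so no test over a list was made. Values in every library are given for the 3 largest calls in each direction whose mean log2 CPM reached 2, the most abundant gene of each role and 11 set genes. Alternatives were scaling by RLE or by library size alone, no filter, a count minimum of 50, DESeq2 1.42.0, a replicate block, only the groups compared, protein-coding genes only, the log2 pseudogene share as a covariate, a log2 fold change of at least 0.5, and leaving out each library. Promoter windows came from RefSeq (GRCm38.p6). Protein sequences were not used here.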

Additional observations from a re-analysis of the deposited data

How the results depend on the processing

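The counts of lysosomal genes lower in KO kept within 1.5 times of the reported 23 (medium) and 29 (LPS): the former ran from 19 to 30 and the latter from 23 to 36 over all alternatives, except 11 in medium with the pseudogene share as a covariate. Leaving out 1 library gave 19 to 28 and 24 to 31. The count higher in KO in medium (1) was 0 under RLE scaling, no filter, DESeq2, only the groups compared, the covariate or a log2 fold change of at least 0.5, and 3 with the replicate block, with protein-coding genes only, without both KO libraries numbered 2 and without 3 libraries numbered 2 (those of WT medium, KO medium and KO LPS), the last 2 alternatives chosen after seeing the data. Leaving out 1 library gave 0 to 3. Under LPS the count higher in KO (0) was 1 with library size alone, only the groups compared, the covariate or without both KO libraries numbered 2, and 2 with the block or without the 3 libraries, and leaving out 1 library gave 0 to 1. Genes risen with LPS in WT (11) were 1 with library size alone, 7 with the covariate, 4 at the size of 0.5 and 7 to 12 leaving out 1 library (7 without WT medium 2 or WT LPS 1). Genes fallen in WT (4) were 16 with library size alone, 1 at the size of 0.5 and 2 to 5 leaving out 1 library. Genes risen in KO (4) were 8 with DESeq2 or the replicate block, 1 with the covariate, 7 without both KO or the 3 libraries numbered 2, and 3 to 6 leaving out 1 library. Genes fallen in KO (8) were 21 with library size alone, 13 with the block or protein-coding genes only, 4 with the covariate, 5 at the size of 0.5, and 6 to 10 leaving out 1 library. The interaction (0 and 0) gave 1 positive without WT medium 2 or the 3 libraries (leave-one-out 0 to 1), and 1 negative with protein-coding genes only or without the 3 libraries. Over all genes, protein-coding genes only and the covariate moved the counts lower in KO in medium from 3256 to 3104 and 1793, and those risen and fallen in KO with LPS from 6679 and 7070 to 4083 and 4202, and to 1334 and 659. With library size alone the LPS log2 fold change in WT reversed for Lamp1 (-0.26), Cd63 (-0.02), Ctsl (-0.21), Tpp1 (-0.24), Galns (-0.04) and Asah1 (-0.29), and in KO for Cd63 (-0.24), counting values that passed the test under either scaling. In all, 18 of the 48 values in WT and 14 in KO turned sign. That scaling lowers the LPS values alike, by 0.33 to 0.34 in WT and 0.25 to 0.26 in KO; the cause of the other changes was not tested. The main fit did not pair libraries by replicate number, and whether the numbers pair the samples was not tested. Correlations were taken on log2 CPM after the group mean of each gene was subtracted. These deviations correlated between same-numbered libraries at r from -0.37 to 0.39, over 0.1 in 11 of 18 pairs. In 21 of 36 matches of a library with the 3 libraries of another group its own number came out best, so a partial pairing remains possible. With the replicate block 30 genes were lower in KO in medium and 36 under LPS, Ctsh was higher in both (0.63, adjusted p = 0.0091, and 0.70, 0.00414), and Tfeb was higher under LPS (0.64, 0.0382). The E-box and CLEAR core counts of 14 and 7 were 13 and 6 with only the bases before the start. Depth limits Ctsk, Sgsh, Ids and Atp6v0d2, whose counts fell to 13, 72, 111 and 36.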

Other observations

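Slc26a11, a neighbour of Sgsh chosen after its values were seen, fell with LPS as Sgsh did. It was at 17.2, 15.9 and 16.4 CPM in WT medium and 1.69, 1.99 and 1.92 in WT LPS (log2 fold change -3.14 ± 0.14 SE, edgeR adjusted p = 3.23e-08), and at 23.4, 19.7 and 26.3 in KO medium and 2.67, 3.29 and 3.04 in KO LPS (-2.95 ± 0.14, edgeR adjusted p = 4.92e-08). Unlike Sgsh, it was called higher in KO in medium (0.49 ± 0.13, edgeR adjusted p = 0.0187) and under LPS (0.69 ± 0.13, edgeR adjusted p = 0.0032). Card14, which overlaps Sgsh on the opposite strand, was called lower in KO under LPS (-0.58 ± 0.16, edgeR adjusted p = 0.0217).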
